A study of Mus musculus with 8 samples.

Results

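The genes described here encode the proteins of the mitochondrial ribosome, measured in mouse quadriceps muscle. They were chosen by symbol: Mrpl or Mrps, a number and an optional letter, with pseudogenes left out and at least 40 reads summed over all libraries. Of the 54532 gene IDs in the deposited tables, 78 matched the symbol rule and 75 had enough reads, 48 of the large subunit (Mrpl) and 27 of the small subunit (Mrps). Just inside the limit lay Mrpl23 with 54 reads and Mrpl22 with 131 reads, and just outside it Mrps36 with 24 reads and Mrps18b with 20 reads, while Mrpl53 had 0 reads.

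The KO group, labelled MckCre Gpcpd1, came from mice with floxed Gpcpd1 alleles (Flox/Flox) that were Mck-Cre positive. The Control group was Gpcpd1 Flox/Flox and Mck-Cre negative. Each group had 4 libraries, and all animals were 3 months old and on chow diet. Mck-Cre places the recombinase under the muscle creatine kinase promoter, so recombination is aimed at muscle fibres, and other cells of the quadriceps are expected to keep the gene. Both groups carried the floxed alleles, and the presence of Cre and the loss of Gpcpd1 cannot be told apart in this design. The study asks what Gpcpd1, an enzyme that hydrolyses glycerophosphocholine, does for muscle ageing and glucose metabolism.

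RNA was measured by 3′ tag sequencing (QuantSeq FWD), which reads the end of polyadenylated transcripts, so a read stands for about one transcript and values were not divided by gene length. Levels are given as CPM, library-size scaled counts with TMM factors, with the mean ± SD over 4 libraries. Fold changes are log2 of KO over Control, and adjusted p-values come from edgeR's quasi-likelihood F test over 10691 genes at a threshold of 0.05. The SE given was derived from that test, as the absolute log2 fold change over the square root of F. Total counts were 4806806 to 5405999 per KO library and 4404116 to 5183079 per Control library. The labels do not say that each library came from a separate mouse, so the p-values reflect how far the libraries spread, which may be technical. Gpcpd1 averaged 35.1 ± 3.45 CPM in KO and 149.7 ± 10.7 CPM in Control (SD, n = 4 each), a level in KO of 23.5% of that in Control, with a log2 fold change of -2.09 (SE 0.10, edgeR adjusted p = 2.13e-13). Markers of muscle fibres were abundant in all libraries, with summed levels of 209502 to 217234 CPM in KO and 188889 to 216193 CPM in Control over 10 genes.

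The mitochondrial ribosome translates the few respiratory chain subunits that mitochondrial DNA still encodes. Its RNAs are made inside the organelle, but all of its proteins are encoded in the nucleus, made in the cytosol and imported. Some of these proteins descend from bacterial ribosomal proteins, and others are found only in mitochondria. Human mutations in several of them impair oxidative phosphorylation, often with disease of muscle, heart or brain.

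Transcripts of mitochondrial ribosomal proteins were mostly higher in KO than in Control quadriceps. Of 74 members that could be tested, 15 rose and 0 fell by edgeR. That is 20.3% higher, against 8.87% of all 10691 tested genes called higher and 6.80% called lower (15.7% called in either direction). Members had a median Control level of 42.5 CPM, against 14.4 CPM over all tested genes, and the shares were not matched for level. At an unadjusted p below 0.05, 25 members were higher and 2 lower, against 1625 higher and 1384 lower of all 10691 tested genes. DESeq2 and limma voom also called 0 members lower. The log2 fold change was above 0 for 63 members and below 0 for 11, where 50.9% of all tested genes were above 0. The median over the members was 0.19, against 0.01 over all tested genes. Changes were small: the 15 called members lay between 1.22-fold and 1.55-fold higher. Because these are bulk samples, more cells of a type and more RNA per cell cannot be told apart. The fold changes in rank order show both subunits shifted to the right of the zero line with few members to its left.

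**Figure D1:**
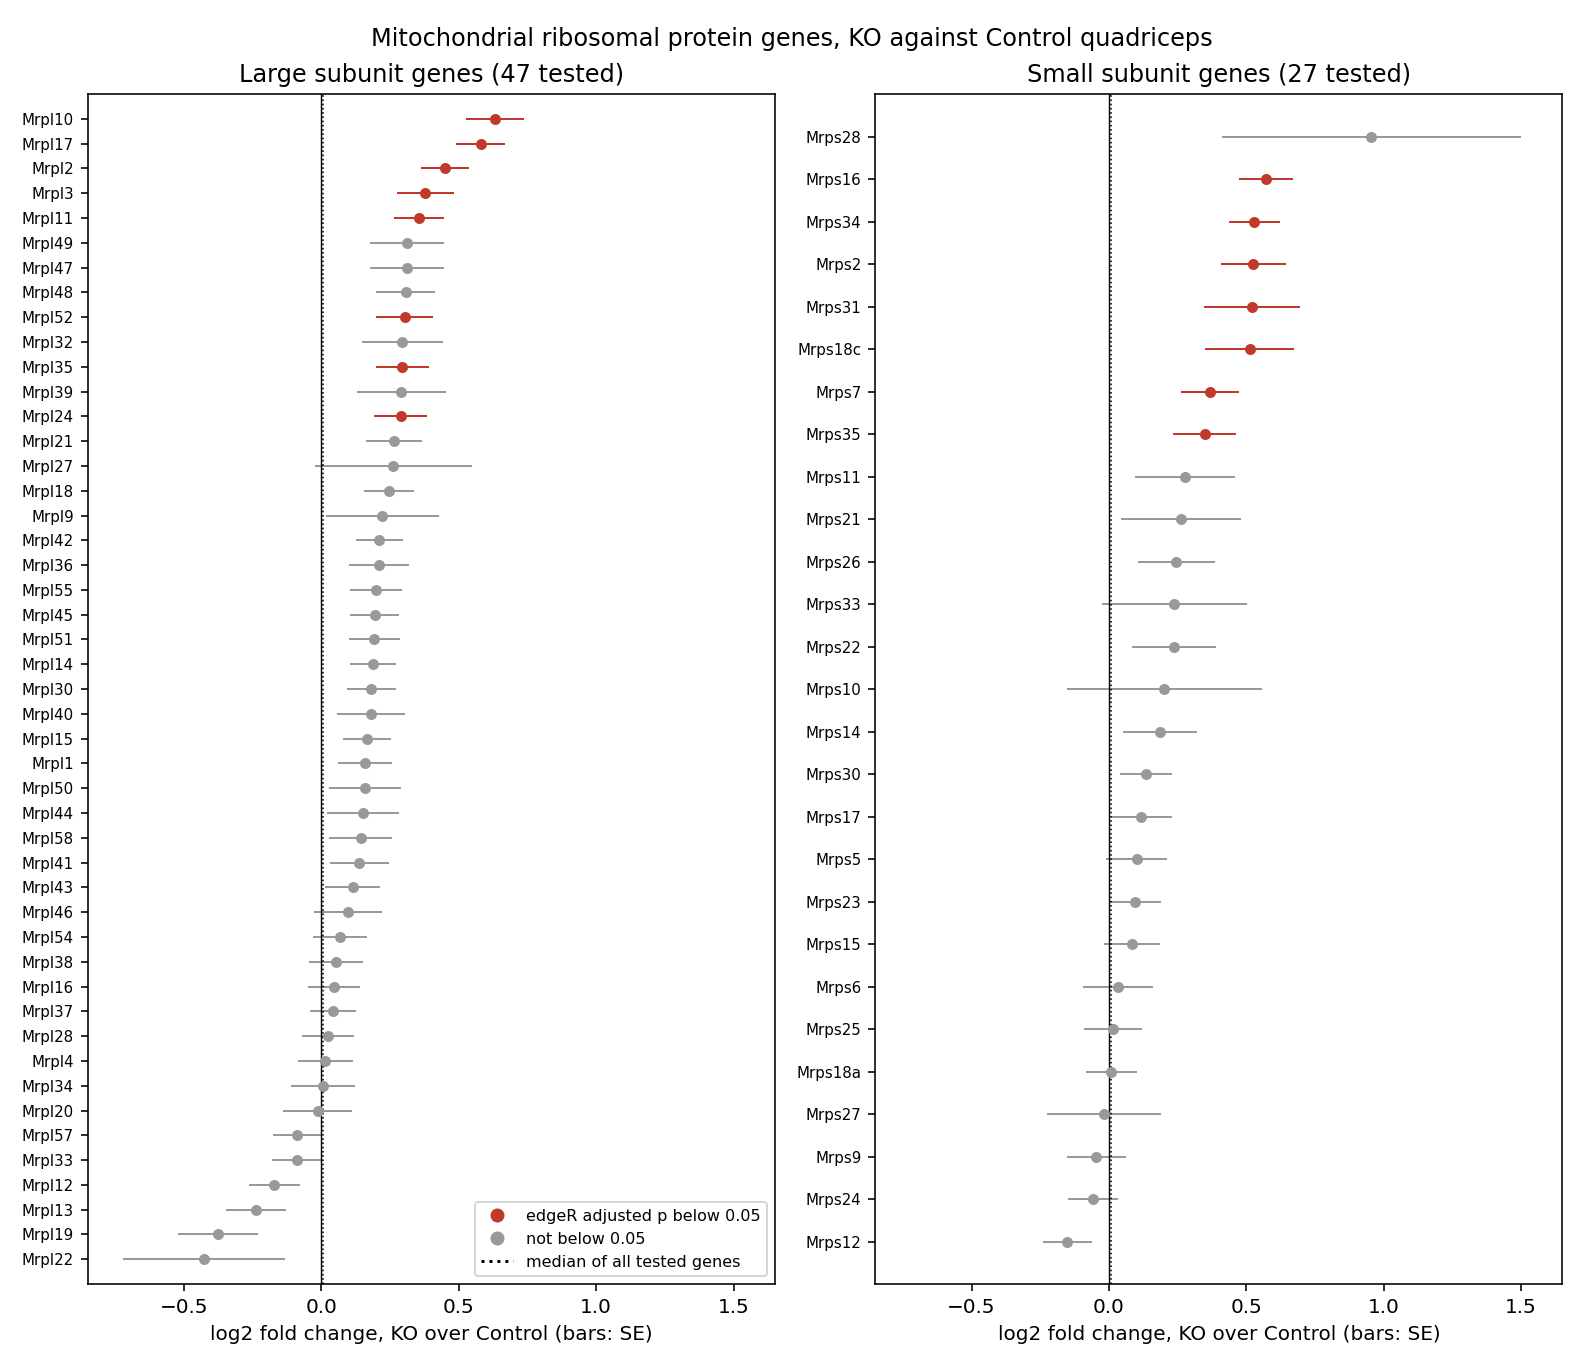
Log2 fold change of each tested member, KO over Control, with bars for the SE (4 libraries a group), for the large subunit (47 genes) and the small subunit (27 genes). Called members are marked apart from the rest, and all 15 of them lie above 0.

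In 73 of the 74 tested members every library reached the level of the low-count filter, 2.01 CPM, and Mrps28 reached it in 4 KO and 3 Control libraries. Mrpl23 did not pass the filter: it had 9, 6, 12 and 8 reads in KO libraries 1 to 4, against 3, 4, 9 and 3 in Control libraries 1 to 4. The groups of these reads overlap, since KO library 2 holds fewer than Control library 3. The levels of the tested members in Control spanned 90.5-fold, and the SE was wider at low level. The 25 members of lowest level had a median SE of 0.153 on the log2 scale and 3 calls, the 24 of middle level 0.105 and 6 calls, and the 25 of highest level 0.0909 and 6 calls. Their median log2 fold changes were 0.24, 0.14 and 0.18, each above that of all tested genes.

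The promoters of these genes were read for motifs of factors known to activate nuclear genes for mitochondrial proteins. Windows from 250 bases before to 50 bases from the annotated start came from RefSeq (GRCm38.p6), and 66 of the 75 members had one. The motifs searched on both strands were CCGGAAG for ETS factors such as GABPA, AAGATGGCG for YY1 and GCATGCGC for NRF1. The first motif ends and the second begins with the letters AAG, so their matches can overlap. The windows below are shown because they carry the motifs in called and uncalled members of both subunits, with the subunit taken from the symbol. Mrps18a, the uncalled Mrps gene shown, lies in the large subunit by structure. Each runs 5′ to 3′ on the gene's strand, with the motif matches in capitals.

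Mrpl17 (chr7:105811038-105811337, minus strand): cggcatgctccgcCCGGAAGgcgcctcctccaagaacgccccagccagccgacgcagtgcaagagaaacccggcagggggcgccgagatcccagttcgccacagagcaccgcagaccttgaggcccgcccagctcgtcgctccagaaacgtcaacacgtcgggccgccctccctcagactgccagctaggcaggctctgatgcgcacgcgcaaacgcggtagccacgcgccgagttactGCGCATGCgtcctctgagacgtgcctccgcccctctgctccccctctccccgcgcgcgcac
Mrpl10 (chr11:97041332-97041631, plus strand): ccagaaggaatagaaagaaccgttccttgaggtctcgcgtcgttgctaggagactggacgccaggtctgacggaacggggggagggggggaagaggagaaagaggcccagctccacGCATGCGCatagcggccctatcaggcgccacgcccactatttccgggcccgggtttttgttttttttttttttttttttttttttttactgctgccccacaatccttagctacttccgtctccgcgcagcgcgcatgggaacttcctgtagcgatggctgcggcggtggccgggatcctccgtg
Mrpl35 (chr6:71823735-71824034, minus strand): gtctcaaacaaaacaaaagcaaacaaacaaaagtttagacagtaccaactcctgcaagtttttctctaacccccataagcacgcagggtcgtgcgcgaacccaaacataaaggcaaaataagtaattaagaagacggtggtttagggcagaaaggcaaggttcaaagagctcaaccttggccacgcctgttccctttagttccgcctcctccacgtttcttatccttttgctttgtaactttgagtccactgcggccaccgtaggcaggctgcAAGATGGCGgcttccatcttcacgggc
Mrpl33 (chr5:31613701-31614000, plus strand): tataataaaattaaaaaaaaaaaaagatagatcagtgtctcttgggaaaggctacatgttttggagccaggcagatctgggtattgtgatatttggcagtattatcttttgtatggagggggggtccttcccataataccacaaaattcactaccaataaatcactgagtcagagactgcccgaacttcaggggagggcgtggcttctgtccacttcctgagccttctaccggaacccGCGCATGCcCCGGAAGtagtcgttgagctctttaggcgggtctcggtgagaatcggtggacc
Mrps16 (chr14:20393441-20393740, minus strand): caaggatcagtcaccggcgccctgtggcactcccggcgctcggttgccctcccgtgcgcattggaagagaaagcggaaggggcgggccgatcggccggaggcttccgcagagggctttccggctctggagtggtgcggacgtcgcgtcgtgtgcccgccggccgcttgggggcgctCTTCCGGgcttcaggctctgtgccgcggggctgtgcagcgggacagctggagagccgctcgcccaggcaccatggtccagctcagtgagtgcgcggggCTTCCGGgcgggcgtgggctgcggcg
Mrps18a (chr17:46110754-46111053, plus strand): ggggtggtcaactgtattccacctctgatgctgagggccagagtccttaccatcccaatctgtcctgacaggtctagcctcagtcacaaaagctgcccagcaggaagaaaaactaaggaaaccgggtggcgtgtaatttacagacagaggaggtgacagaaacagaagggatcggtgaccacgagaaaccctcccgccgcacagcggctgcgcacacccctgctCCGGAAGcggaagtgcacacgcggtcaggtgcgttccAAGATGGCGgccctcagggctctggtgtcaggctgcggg

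With the annotated start base counted as 0, the Mrpl17 window holds an ETS match beginning at -237 and an NRF1 match at -11, and the Mrpl10 window an NRF1 match at -134. Mrpl35 has a YY1 match at 23 and Mrps16 has ETS matches at -74 and 24. In the windows of uncalled members, Mrpl33 has an NRF1 match at -12 and an ETS match at -3, and Mrps18a an ETS match at -26 and a YY1 match at 11. The motifs thus occur in windows of genes that rose and of genes that did not pass the test.

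Over all 66 windows, 33 held at least 1 motif, a share of 50%, against 12.5% of the 27025 genes with a window and 26.7% of the 8188 tested genes with one. The ETS motif was the most frequent, in 34.8% of member windows, against 19.5% of tested genes and 9.12% of all genes. The YY1 motif was in 12.1% of member windows, against 3.62% of tested genes and 1.49% of all genes. The NRF1 motif was in 10.6% of member windows, against 5.81% of tested genes and 2.80% of all genes. Among the 42 large subunit windows 31.0% held the ETS motif and 16.7% the NRF1 motif, and among the 24 small subunit windows 41.7% held the ETS motif and 0 held the NRF1 letters. A motif was present in 7 of 13 called members (53.8%) and in 26 of 53 other members (49.1%). The 33 tested members with a motif had a median log2 fold change of 0.24 and 7 calls, and the 32 without had a median of 0.17 and 6 calls. A match describes letters in the window and does not show that a factor binds there.

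In the large subunit, 8 of 47 tested genes rose (17.0%) and 0 fell, with 40 above and 7 below 0 and a median of 0.18. The count was 5 with DESeq2. It also moved with single libraries and was 5 without KO library 1, 5 without KO library 2, 4 without KO library 4, 5 without Control library 1, 4 without Control library 3 and 5 without Control library 4. The largest called changes were in Mrpl10 and Mrpl17. Mrpl10 anchors the stalk that recruits translation factors to the ribosome, and Mrpl17 is the counterpart of bacterial L17.

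Mrpl17 (ENSMUSG00000030879, GRCm38 chr7:105803206-105811099, minus strand) had 110.0, 114, 112 and 116 CPM in KO libraries 1 to 4, against 70.9, 88.0, 72.1 and 71.9 CPM in Control libraries 1 to 4. The KO libraries are close to one another and all lie above the Control libraries, of which library 2 is the highest. The means were 113 ± 2.80 CPM in KO and 75.7 ± 8.20 CPM in Control (SD, n = 4 each). The log2 fold change was 0.58 (SE 0.09, edgeR adjusted p = 5.61e-05).

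Mrpl10 (ENSMUSG00000001445, GRCm38 chr11:97041560-97049213, plus strand) had 47.6, 47.9, 45.7 and 42.9 CPM in KO libraries 1 to 4, against 30.4, 33.4, 26.0 and 29.0 CPM in Control libraries 1 to 4. Its lowest KO library is well above its highest Control library. The means were 46.0 ± 2.31 CPM in KO and 29.7 ± 3.07 CPM in Control (SD, n = 4 each) and the log2 fold change 0.63 (SE 0.10, edgeR adjusted p = 0.000135), 1.55-fold and the largest among the called members.

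Mrpl2 (ENSMUSG00000002767, GRCm38 chr17:46646229-46650139, plus strand), the counterpart of a bacterial protein close to the peptidyl transferase centre, had 88.6, 81.5, 88.8 and 86.2 CPM in KO libraries 1 to 4, against 63.8, 62.8, 58.0 and 68.1 CPM in Control libraries 1 to 4. The groups do not overlap. Its means of 86.3 ± 3.38 CPM in KO and 63.2 ± 4.16 CPM in Control (SD, n = 4 each) gave a log2 fold change of 0.45 (SE 0.09, edgeR adjusted p = 0.000712). Mrpl11 (ENSMUSG00000024902, GRCm38 chr19:4962147-4966999, plus strand), which in bacteria forms the base of the stalk together with the L10 protein, had 102, 114, 104 and 116 CPM in KO libraries 1 to 4, against 78.6, 94.9, 88.9 and 78.6 CPM in Control libraries 1 to 4. All its KO libraries again lie above all Control libraries. It averaged 109 ± 6.82 CPM in KO and 85.2 ± 8.04 CPM in Control (SD, n = 4 each), with a log2 fold change of 0.35 (SE 0.09, edgeR adjusted p = 0.00728). Mrpl2, Mrpl10, Mrpl11 and Mrpl17 passed the threshold under all 19 alternative fits that were run.

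The other 4 called large subunit genes lost their call in some fits with 1 library left out. Mrpl3, whose bacterial counterpart reaches towards the peptidyl transferase centre, had 34.9 to 38.4 CPM in KO and 25.3 to 29.6 CPM in Control and a log2 fold change of 0.38 (SE 0.11, edgeR adjusted p = 0.0141). Its call was lost without KO library 4 or Control library 3, and a same-strand gene model of 155 reads overlaps its exons. Mrpl35 had 51.1 to 61.2 CPM in KO and 41.7 to 49.3 CPM in Control, with a log2 fold change of 0.29 (SE 0.10, edgeR adjusted p = 0.038). Neither of these genes overlapped between groups, but the call of Mrpl35 was lost without any one library other than KO library 3 or Control library 2. Mrpl24, whose bacterial counterpart sits at the exit of the peptide tunnel, had 80.1 to 87.3 CPM in KO and 61.0 to 80.5 CPM in Control. Its log2 fold change was 0.29 (SE 0.10, edgeR adjusted p = 0.0415), the groups overlap, and the call was lost without any one library other than Control library 2. The last 300 bases of Mrpl24 overlap the antisense gene Rrnad1. Mrpl52, found only in mitochondrial ribosomes, had 55.0 to 73.7 CPM in KO and 48.5 to 58.4 CPM in Control, also with overlap. Its log2 fold change was 0.30 (SE 0.10, edgeR adjusted p = 0.0494), and its call was lost without any one library other than KO library 3 or Control library 2.

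The 3 large subunit genes of highest level in Control did not pass the test. Mrpl12, the factor-binding stalk protein held by Mrpl10, had the highest level of all members, with 265 ± 24.4 CPM in KO and 298 ± 33.0 CPM in Control (SD, n = 4 each). Its log2 fold change was -0.17 (SE 0.09, edgeR adjusted p = 0.235), below 0, while its stalk partner Mrpl10 rose. Mrpl33 averaged 228 ± 21.8 CPM in KO and 243 ± 23.9 CPM in Control (SD, n = 4 each) and had a log2 fold change of -0.09 (SE 0.09, edgeR adjusted p = 0.576). Mrpl42 averaged 229 ± 23.6 CPM in KO and 198 ± 7.90 CPM in Control (SD, n = 4 each), and its groups do not overlap, but its log2 fold change of 0.21 (SE 0.09, edgeR adjusted p = 0.103) missed the threshold. At the low end, Mrpl22 had a log2 fold change of -0.43 (SE 0.29, edgeR adjusted p = 0.372) and Mrpl9 of 0.22 (SE 0.21, edgeR adjusted p = 0.529), with SEs wider than those of the called genes.

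Among large subunit members, 13 had all KO libraries above all Control libraries, and 1 had all below. That 1 gene was Mrpl19, chosen for mention after its values were seen, with 10.1, 13.6, 12.3 and 13.2 CPM in KO libraries 1 to 4, against 16.8, 17.0, 14.7 and 15.3 CPM in Control libraries 1 to 4. Its log2 fold change was -0.38 (SE 0.15, edgeR adjusted p = 0.0848), past the threshold in 2 of the alternative fits, and its 3′ end overlaps the antisense gene Gcfc2. Mrpl48, also chosen after its values were seen, averaged 32.8 ± 0.278 CPM in KO and 26.5 ± 2.20 CPM in Control (SD, n = 4 each). Its groups do not overlap and its log2 fold change of 0.31 (SE 0.11, edgeR adjusted p = 0.0564) missed the threshold with all libraries and passed it in 4 alternative fits, among them the fit without Control library 2 (edgeR adjusted p = 0.0444). Over all 74 tested members, 20 had groups without overlap (27.0%), 19 of them higher in KO, against 19.2% of all tested genes in either direction.

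Besides Mrpl42 and Mrpl48, 5 large subunit genes and 1 small subunit gene had KO libraries above all Control libraries without passing the test, and they are named here after their values were seen. Mrpl18, part of the central protuberance, averaged 94.4 ± 10.4 CPM in KO and 79.6 ± 1.78 CPM in Control (SD, n = 4 each), with a log2 fold change of 0.25 (SE 0.09, edgeR adjusted p = 0.0682). Mrpl45, which lies where the ribosome faces the inner membrane, averaged 65.6 ± 2.70 CPM in KO and 57.3 ± 3.49 CPM in Control (SD, n = 4 each), with 0.19 (SE 0.09, edgeR adjusted p = 0.153). Mrpl47, Mrpl15 and Mrpl1 had log2 fold changes of 0.31 (SE 0.13), 0.17 (SE 0.09) and 0.16 (SE 0.10). Mrps22, mutated in a human disease of mitochondrial translation, averaged 11.7 ± 0.696 CPM in KO and 9.92 ± 0.595 CPM in Control (SD, n = 4 each), with a log2 fold change of 0.24 (SE 0.15, edgeR adjusted p = 0.342). Mrpl21, whose groups overlap, had 59.4 to 75.7 CPM in KO and 49.8 to 61.6 CPM in Control and a log2 fold change of 0.27 (SE 0.10, edgeR adjusted p = 0.0793), and it was called without Control library 2, at 0.32 (edgeR adjusted p = 0.0396).

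Some members showed almost equal levels in the groups. Mrpl37 averaged 191 ± 10.4 CPM in KO and 186 ± 14.4 CPM in Control (SD, n = 4 each), with a log2 fold change of 0.04 (SE 0.08), and Mrpl16 averaged 78.6 ± 7.53 CPM in KO and 76.2 ± 6.86 CPM in Control (SD, n = 4 each), with 0.04 (SE 0.09). Mrpl28, Mrpl4 and Mrpl34 had log2 fold changes of 0.02 (SE 0.10), 0.01 (SE 0.10) and 0.01 (SE 0.12). Mrpl58, a hydrolase that frees stalled ribosomes, had a log2 fold change of 0.14 (SE 0.11). Besides Mrpl12, Mrpl19, Mrpl22 and Mrpl33, the large subunit genes below 0 were Mrpl13 at -0.24 (SE 0.11, edgeR adjusted p = 0.157), Mrpl57 at -0.09 (SE 0.09) and Mrpl20 at -0.01 (SE 0.13).

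In the small subunit, 7 of 27 tested genes rose (25.9%) and 0 fell, with 23 above and 4 below 0 and a median of 0.20. The count was 4 with DESeq2. It was 3 without KO library 2, 3 without KO library 4, 4 without Control library 3 and 3 without Control library 4. Mrps16, Mrps34 and Mrps2 had the lowest p-values, and mutations in the human counterpart of each impair mitochondrial translation. They passed the threshold under all 19 alternative fits.

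Mrps16 (ENSMUSG00000049960, GRCm38 chr14:20389304-20393634, minus strand), the counterpart of bacterial S16, had 116, 91.9, 116 and 119 CPM in KO libraries 1 to 4, against 67.2, 79.7, 79.7 and 71.0 CPM in Control libraries 1 to 4. KO library 2 is lower than the other KO libraries, and it is still above every Control library. The means were 111 ± 12.6 CPM in KO and 74.4 ± 6.29 CPM in Control (SD, n = 4 each), with a log2 fold change of 0.57 (SE 0.10, edgeR adjusted p = 0.000168).

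Mrps34 (ENSMUSG00000038880, GRCm38 chr17:24895116-24897502, plus strand), found only in mitochondria, had 127, 118, 109.8 and 119 CPM in KO libraries 1 to 4, against 78.4, 91.4, 86.5 and 71.9 CPM in Control libraries 1 to 4. The groups are far apart relative to their spread. Its means of 119 ± 7.10 CPM in KO and 82.1 ± 8.65 CPM in Control (SD, n = 4 each) gave a log2 fold change of 0.53 (SE 0.09, edgeR adjusted p = 0.000205). The last 300 bases of Mrps34 overlap the antisense gene Mapk8ip3, and whether counting used the strand is not given in the sources used here, so reads of the genes cannot be told apart.

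Mrps2 (ENSMUSG00000035772, GRCm38 chr2:28468066-28471178, plus strand), the counterpart of bacterial S2, had 35.0, 37.8, 40.1 and 32.4 CPM in KO libraries 1 to 4, against 29.9, 21.7, 25.3 and 24.4 CPM in Control libraries 1 to 4. Its lowest KO library is above its highest Control library by a small margin. It averaged 36.3 ± 3.35 CPM in KO and 25.3 ± 3.43 CPM in Control (SD, n = 4 each). The log2 fold change was 0.52 (SE 0.12, edgeR adjusted p = 0.0029).

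The other 4 called small subunit genes depended on single libraries. Mrps7, the counterpart of a bacterial protein that organises the head of the small subunit, had 51.1 to 58.1 CPM in KO and 36.8 to 50.3 CPM in Control and a log2 fold change of 0.37 (SE 0.11, edgeR adjusted p = 0.0178). Its groups do not overlap, and its call was lost without KO library 2, KO library 4, Control library 1 or Control library 4. Mrps35 had 26.9 to 31.3 CPM in KO and 21.1 to 25.3 CPM in Control, without overlap, and a log2 fold change of 0.35 (SE 0.11, edgeR adjusted p = 0.0396). Its call was lost without any one library other than KO library 3 or Control library 2. Mrps18c, one of several S18 counterparts in mammals, had 15.1, 27.9, 19.3 and 23.3 CPM in KO libraries 1 to 4, against 15.7, 16.2, 14.9 and 13.2 CPM in Control libraries 1 to 4. KO library 1 lies within the Control range and the other KO libraries above it. Its log2 fold change was 0.51 (SE 0.16, edgeR adjusted p = 0.0308), and its call was lost without KO library 2, KO library 4, Control library 3 or Control library 4. Mrps31 had 9.85, 14.3, 16.7 and 17.5 CPM in KO libraries 1 to 4, against 11.6, 9.12, 9.99 and 10.1 CPM in Control libraries 1 to 4, again with KO library 1 inside the Control range. Its log2 fold change of 0.52 (SE 0.17, edgeR adjusted p = 0.0439) lost its call without any one library other than KO library 1 or Control library 1.

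**Figure D2:**
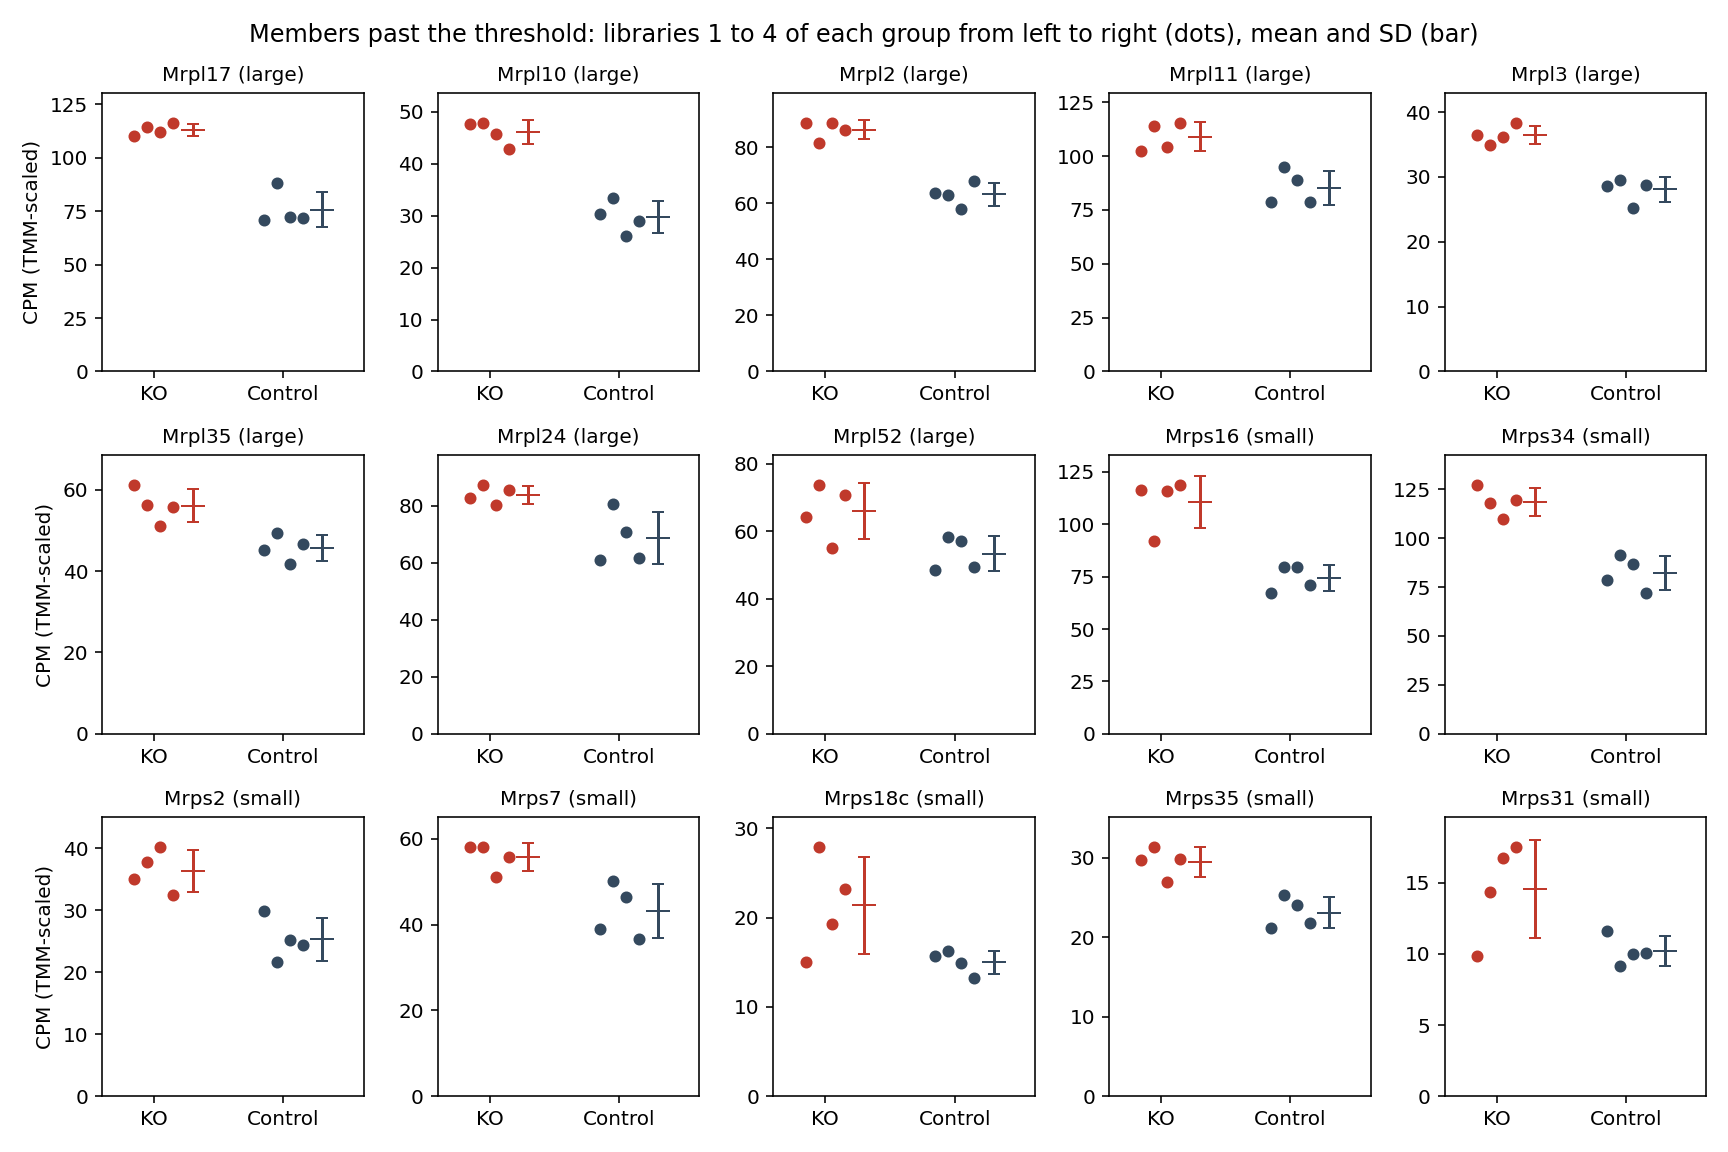
Level (CPM) of the 15 called members in each library, with KO left of Control, dots for libraries 1 to 4 and bars for the mean and SD. In 11 of the 15 panels every KO dot is above every Control dot, and in Mrpl24, Mrpl52, Mrps18c and Mrps31 the groups overlap. The 15 were picked by the test on these same libraries, which favours separated groups. Groups did not overlap in 27.0% of tested members and in 19.2% of all tested genes, in either direction.

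The 3 small subunit genes of highest level in Control were not called. Mrps15 averaged 177 ± 17.0 CPM in KO and 167 ± 25.8 CPM in Control (SD, n = 4 each), with a log2 fold change of 0.08 (SE 0.10, edgeR adjusted p = 0.643). Mrps12, part of the decoding centre, averaged 136 ± 4.12 CPM in KO and 151 ± 18.3 CPM in Control (SD, n = 4 each) and had a log2 fold change of -0.15 (SE 0.09, edgeR adjusted p = 0.289). Mrps23 averaged 156 ± 15.6 CPM in KO and 146 ± 15.1 CPM in Control (SD, n = 4 each), with a log2 fold change of 0.10 (SE 0.09, edgeR adjusted p = 0.548). The highest log2 fold change of any member belonged to a gene near the filter level, Mrps28, with 2.3, 8.59, 11.7 and 7.89 CPM in KO libraries 1 to 4, against 6.25, 1.22, 5.48 and 2.94 CPM in Control libraries 1 to 4. Its groups overlap, and the log2 fold change of 0.95 (SE 0.54, edgeR adjusted p = 0.308) did not pass the test with all libraries but reached 1.24 (edgeR adjusted p = 0.0209) without KO library 1. Mrps33 and Mrps10, the other small subunit genes of lowest level, had log2 fold changes of 0.24 (SE 0.26, edgeR adjusted p = 0.606) and 0.20 (SE 0.36, edgeR adjusted p = 0.769).

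Besides Mrps12, the small subunit genes below 0 were Mrps24 at -0.06 (SE 0.09), Mrps9 at -0.05 (SE 0.11) and Mrps27 at -0.02 (SE 0.21). Mrps24 averaged 109.8 ± 11.8 CPM in KO and 114 ± 6.64 CPM in Control (SD, n = 4 each), and Mrps27 7.27 ± 1.85 CPM in KO and 7.38 ± 1.16 CPM in Control (SD, n = 4 each). Mrps14, Mrps11 and Mrps26 had log2 fold changes of 0.19 (SE 0.13), 0.28 (SE 0.18) and 0.25 (SE 0.14), above 0 and with overlapping groups.

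Names and structure differ for a few of these proteins. Mrps30 and Mrps18a lie in the large subunit in spite of their names, and Mrps36 belongs to the oxoglutarate dehydrogenase complex rather than the ribosome. Mrps30 averaged 53.0 ± 4.23 CPM in KO and 48.2 ± 2.24 CPM in Control (SD, n = 4 each) with a log2 fold change of 0.14 (SE 0.09, edgeR adjusted p = 0.376), and Mrps18a 113 ± 11.0 CPM in KO and 112 ± 9.78 CPM in Control (SD, n = 4 each) with 0.01 (SE 0.09, edgeR adjusted p = 0.964). Mrps36 had 24 reads in all and was left out by the read limit. A further 5 subunits carry other names, and 1 of them rose (20%), Gadd45gip1, a large subunit protein. Gadd45gip1 had 75.9 ± 6.06 CPM in KO and 55.0 ± 8.90 CPM in Control (SD, n = 4 each) and a log2 fold change of 0.46 (SE 0.11, edgeR adjusted p = 0.00393). With genes placed by structure, the large subunit had 9 of 50 tested genes higher (18%) and a median of 0.18. The small subunit had 7 of 29 higher (24.1%) and a median of 0.24. Of all tested genes, 8.87% were called higher.

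Proteins with a bacterial counterpart and those found only in mitochondria were both mostly above 0. Of all tested genes, 8.87% were called higher. Of large subunit genes with a counterpart, 7 of 29 rose (24.1%) and the median was 0.20. Of those without one, 1 of 18 rose (5.56%, below the share of all tested genes), Mrpl52, with a median of 0.15. In the small subunit 4 of 16 genes with a counterpart rose (25%, median 0.19), against 3 of 9 without one (33.3%, median 0.24). The 9 leave out Mrps30 and Mrps18a, which lie in the large subunit and were not called. Their log2 fold changes of 0.14 and 0.01 are below that median, and they stand in none of these classes. The difference between these classes was not tested.

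The libraries of a group were not uniform. The median large subunit gene deviated from its Control mean by 0.20, 0.17, 0.10 and 0.19 (log2 units) in KO libraries 1 to 4, against 0.01, 0.10, 0.01 and -0.09 in Control libraries 1 to 4. KO library 3 and Control library 2 nearly meet, at 0.0997 and 0.0980. For the small subunit the medians were 0.03, 0.31, 0.10 and 0.26 in KO and -0.06, 0.14, 0.01 and -0.13 in Control, and the groups overlap because KO libraries 1 and 3 lie below Control library 2. A KO library was the highest of the 8 for 57 of the 74 tested members, and a Control library for 17, of which 12 were Control library 2. A Control library was the lowest for 58 members, 23 of them in Control library 4, and a KO library for 16. The highest and lowest libraries were not counted over all tested genes, so these counts have no share to be set against.

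**Figure D3:**
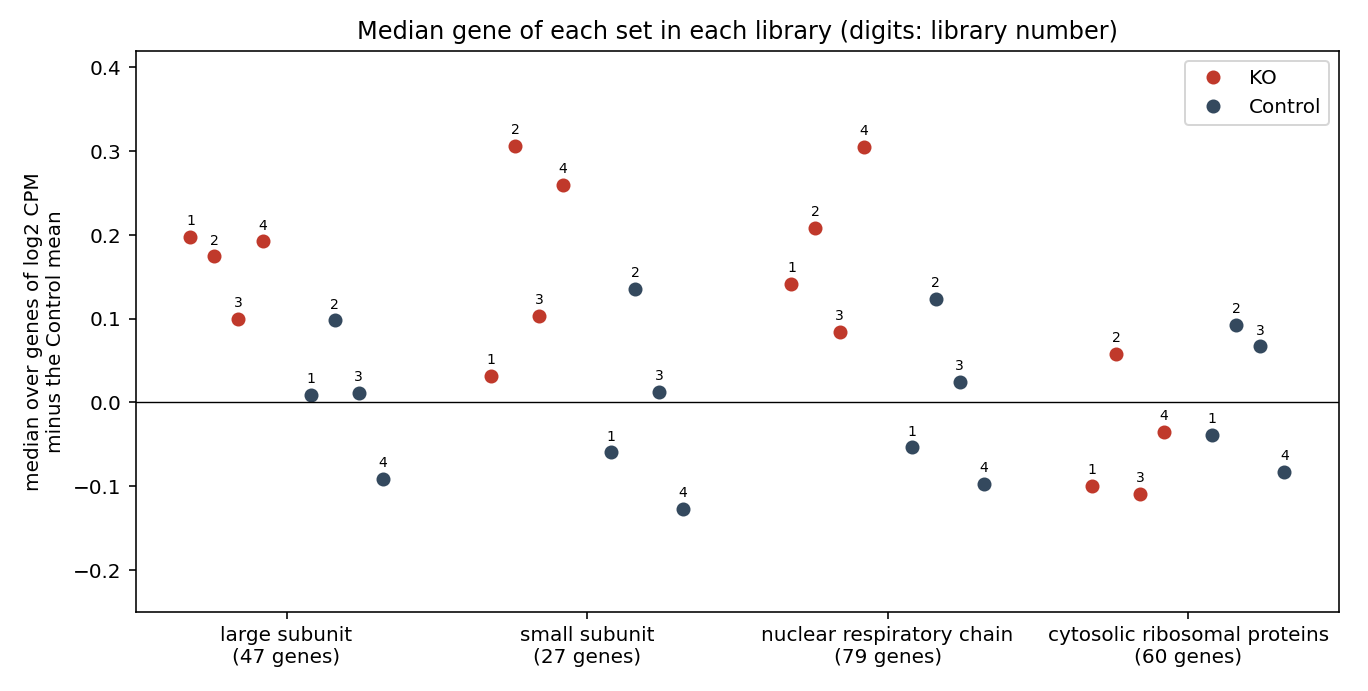
Median over genes of log2 CPM minus the Control mean, by library, for the large subunit, the small subunit, nuclear respiratory chain genes and cytosolic ribosomal protein genes, with KO left of Control and digits for the library number. Large subunit medians lie at 0.0997 or above in KO and at 0.0980 or below in Control, while cytosolic ribosomal protein medians of the groups overlap.

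Summed over all 75 members, the level was 4549 to 4974 CPM in KO (4789 ± 176, SD, n = 4) and 4048 to 4728 CPM in Control (4347 ± 292, SD, n = 4). The ranges overlap. As a share of all reads in the library, without TMM scaling, members made up 0.455% to 0.485% in KO and 0.418% to 0.450% in Control, and these shares do not overlap.

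Of 25 tested assembly and rRNA modification factors, 2 rose and 0 fell by edgeR, a share near that of all tested genes, with a median of 0.14. They were Trub2, a pseudouridine synthase, with 61.0 ± 3.84 CPM in KO and 41.9 ± 3.17 CPM in Control (SD, n = 4 each) and a log2 fold change of 0.54 (SE 0.10, edgeR adjusted p = 0.000284), and Mettl15, a methyltransferase for the small subunit rRNA, with 7.14 ± 1.47 CPM in KO and 3.49 ± 1.37 CPM in Control (SD, n = 4 each) and 1.04 (SE 0.26, edgeR adjusted p = 0.00622). Of 16 translation factors, 3 rose (18.8%, against 8.87% of all tested genes) and 0 fell, with a median of 0.14. The alternative fits called 2 to 4 higher and 0 lower, with 2 without KO library 2, Control library 3 or Control library 4. Gfm1, the elongation factor that moves the ribosome along the mRNA, averaged 35.1 ± 0.471 CPM in KO and 25.1 ± 1.78 CPM in Control (SD, n = 4 each), with a log2 fold change of 0.48 (SE 0.11, edgeR adjusted p = 0.00247). Gfm2, which splits ribosomes for reuse, averaged 62.9 ± 5.68 CPM in KO and 44.3 ± 4.42 CPM in Control (SD, n = 4 each), with 0.51 (SE 0.10, edgeR adjusted p = 0.000859). Mtrf1, of the release factor family, had a log2 fold change of 0.79 (SE 0.22, edgeR adjusted p = 0.0166) at a low mean level of 9.80 CPM in KO and 5.70 CPM in Control.

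Enzymes that charge mitochondrial tRNAs gave 2 genes higher and 1 lower of 21 tested, a share near that of all genes, with a median of 0.08. Gatb, a subunit of the complex that makes glutaminyl-tRNA, had a log2 fold change of 0.62 (SE 0.16, edgeR adjusted p = 0.00731), and the isoleucyl-tRNA synthetase Iars2 of 0.34 (SE 0.10, edgeR adjusted p = 0.0157). The histidyl-tRNA synthetase Hars2 fell, with a log2 fold change of -0.43 (SE 0.13, edgeR adjusted p = 0.0211), and lost its call without KO library 3, Control library 3 or Control library 4. Genes of the list called higher numbered 1 without KO library 1 or Control library 3 and 3 without Control library 2. Of 8 tested genes for transcription and upkeep of mitochondrial DNA, 2 rose by edgeR (25%, against 8.87% of all tested genes). Tfam, which packages the DNA and starts transcription, had a log2 fold change of 0.44 (SE 0.13, edgeR adjusted p = 0.0217). Tefm, an elongation factor of the mitochondrial polymerase, had 1.15 (SE 0.29, edgeR adjusted p = 0.00694). The count higher was 1 without KO library 2, KO library 4, Control library 3 or Control library 4. Tefm was near the filter level, with 5.40 ± 1.99 CPM in KO and 2.42 ± 0.239 CPM in Control (SD, n = 4 each).

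Of the regulators of nuclear mitochondrial genes none was called higher by edgeR. Of 8 tested, 0 rose, also at an unadjusted p below 0.05 and with DESeq2. By edgeR 2 fell (25%, against 6.80% of all tested genes), and 1 without Control library 4. The median was -0.12. Gabpa, the ETS factor, averaged 4.51 ± 0.873 CPM in KO and 7.82 ± 1.30 CPM in Control (SD, n = 4 each), with a log2 fold change of -0.79 (SE 0.21, edgeR adjusted p = 0.0125). Yy1 averaged 28.5 ± 2.94 CPM in KO and 41.1 ± 4.52 CPM in Control (SD, n = 4 each), with -0.53 (SE 0.11, edgeR adjusted p = 0.00193). Nrf1 had a log2 fold change of -0.01 (SE 0.17, edgeR adjusted p = 0.973) and the coactivator Ppargc1a of -0.02 (SE 0.10, edgeR adjusted p = 0.924). These are mRNA levels of the factors and say nothing of their activity.

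RNAs made from mitochondrial DNA did not pass the test with all libraries. The rRNA of the small subunit, mt-Rnr1, had 191, 96.6, 139 and 106 CPM in KO libraries 1 to 4, against 136, 119.8, 156 and 259 CPM in Control libraries 1 to 4, with wide overlap and a log2 fold change of -0.33 (SE 0.33, edgeR adjusted p = 0.582). The rRNA of the large subunit, mt-Rnr2, averaged 683 ± 235 CPM in KO and 746 ± 222 CPM in Control (SD, n = 4 each), with a log2 fold change of -0.13 (SE 0.31, edgeR adjusted p = 0.841). Of the 13 mitochondrial mRNAs, 6 could be tested and 0 were called by edgeR, with 1 lower at an unadjusted p below 0.05 and 0 called by DESeq2 or limma voom. Without KO library 1, 2 were called lower, and 1 without KO library 3 or Control library 2. All 6 had log2 fold changes below 0, from -0.37 in mt-Co1 to -0.05 in mt-Nd2, with a median of -0.12. The level of these RNAs in a poly(A)-primed 3′ library depends on their own tails, so they are compared between groups only.

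Among the larger lists, 22 of 79 tested nuclear respiratory chain genes were higher (27.8%, against 8.87% of all tested genes) and 0 lower. The median was 0.18, beside 0.19 for the mitochondrial ribosomal proteins. The count was 11 without KO library 4 and 15 to 24 without any other single library. Their medians by library were 0.14, 0.21, 0.08 and 0.31 in KO libraries 1 to 4 and -0.05, 0.12, 0.02 and -0.10 in Control libraries 1 to 4, and the groups overlap. Cytosolic ribosomal proteins gave 1 gene higher and 2 lower of 60 tested (1.67% and 3.33%), with a median of -0.04. With 1 library left out, 4 were higher without KO library 1, 1 without Control library 1 and 0 otherwise, and 0 to 3 were lower (0 without KO library 3, Control library 2 or Control library 3, 1 without KO library 2 or 4, 3 without Control library 4). Library totals alone gave 0 higher and 7 lower, and DESeq2 0 higher and 1 lower. Their library medians overlapped between the groups.

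**Figure D4:**
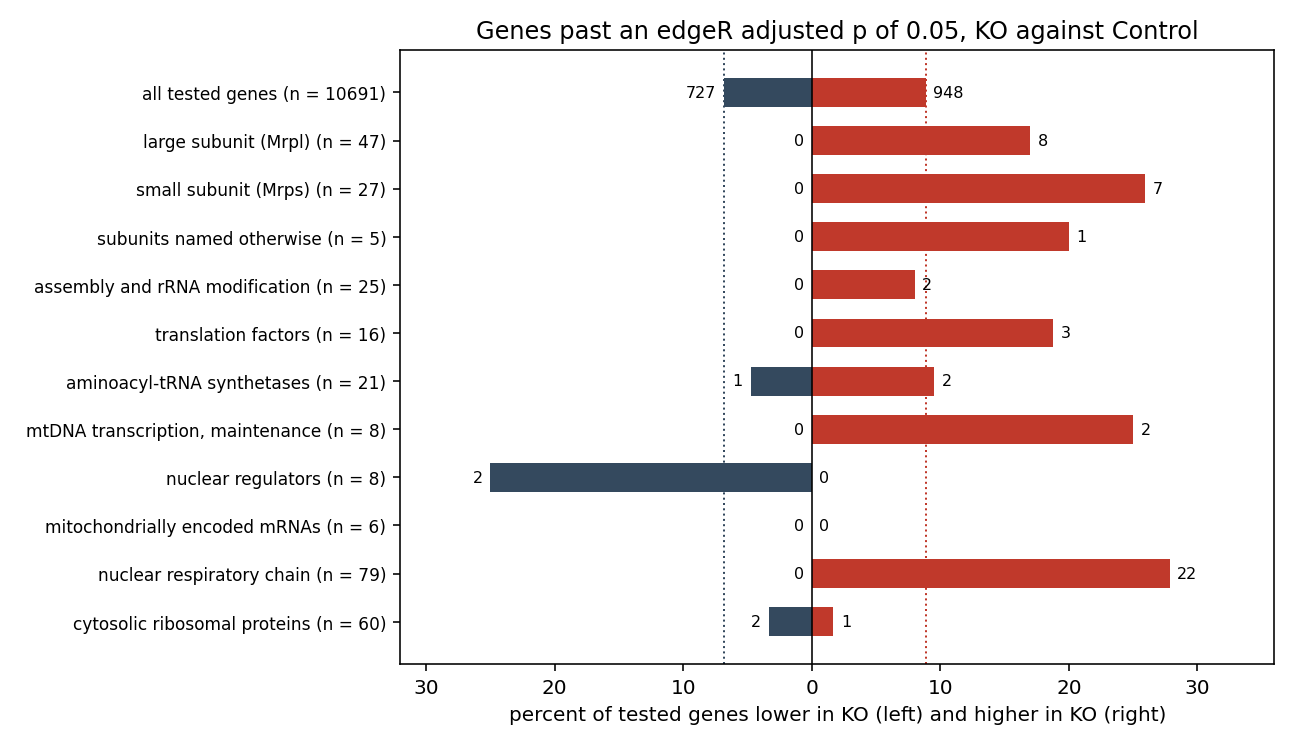
Percent of tested genes in each list past an edgeR adjusted p of 0.05, higher in KO to the right and lower in KO to the left, with all tested genes at the top and as dotted lines, and digits for the number of genes. Large and small subunit genes had 17.0% and 25.9% higher and 0 lower, against 8.87% higher and 6.80% lower of all genes.

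Markers of some cell and fibre types also differed between the groups. The median muscle fibre marker deviated from its Control mean by 0.12 to 0.21 (log2 units) in KO libraries. In Control libraries it deviated by -0.10 to 0.08. By edgeR 1 of 10 genes was higher (Acta1) and 1 lower (Myh4), 10% each, against 8.87% higher and 6.80% lower of all tested genes. Log2 fold changes of the 10 genes ranged from -0.31 to 1.46. The count higher was 0 without KO library 2, 3 or 4 or Control library 1 or 3, 2 without KO library 1 and 3 without Control library 2. Slow fibres are rich in mitochondria, and the summed level of their 6 markers was 156 to 433 CPM in KO and 9.05 to 43.0 CPM in Control. Myl3 carried that sum, with 219 ± 120.0 CPM in KO and 23.7 ± 11.1 CPM in Control (SD, n = 4 each) and a log2 fold change of 3.20 (SE 0.53, edgeR adjusted p = 0.00916), while the defining slow myosin Myh7 was near 0, with 17, 2, 2 and 2 reads in KO libraries 1 to 4, against 0, 7, 1 and 16 in Control libraries 1 to 4. The summed level of 6 macrophage markers was 28.4 to 45.5 CPM in KO and 40.7 to 67.9 CPM in Control. Of the 5 tested, 3 fell by edgeR (60%, against 6.80% of all tested genes), and 2 or 3 over the alternative fits. Of 6 fibroblast markers 1 fell with all libraries (16.7%, against 6.80% of all tested genes). That count was 0 without KO library 3, KO library 4, Control library 3 or Control library 4 and 2 without Control library 2. None of the 6 endothelial, 5 adipocyte, 4 satellite cell and 5 red blood cell markers tested was called by edgeR with all libraries or reached an unadjusted p below 0.05, and DESeq2 also called 0. Without KO library 2, 2 red blood cell markers were called lower. The part of these shifts in the levels of the mitochondrial ribosomal proteins was not tested.

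Counting can mix these genes with others. Exons of 19 members overlap another gene of 40 or more reads, among them the called genes Mrpl3, Mrpl24, Mrps7 and Mrps34. Without the 19 (13 large and 6 small), 6 large and 5 small subunit genes rose, and the medians were 0.16 and 0.20. With all members, 8 of 47 large (17.0%) and 7 of 27 small subunit genes (25.9%) rose, against 8.87% of all tested genes. Near-identical copies of the 3′ end exist elsewhere in the transcript annotation for 7 members, of which Mrps18c was called, and its copy Gm15946 had 14 reads.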

How the data were processed

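Polyadenylated RNA of 8 quadriceps libraries was sequenced as 3′ tags. For each library the authors deposited a table of unnormalized counts by Ensembl gene ID. Tools listed in the submitters' processing notes are featureCounts, Subread 1.6.2 and Bowtie2 2.3.4.1, with the GRCm38 genome. The setting for strand is not given in the sources used here. Counting can be affected by overlapping or near-identical genes, and 3′ ends that the annotation misses go uncounted. GENCODE M21 supplied symbols for 54495 of 54532 IDs.

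Genes were filtered with filterByExpr (minimum count 10, minimum total 15), which left 10691 genes holding 99.5% to 99.6% of each library's reads, scaled by TMM (factors 0.955 to 1.06) and tested with edgeR 4.0.16 (R 4.3.3), robust quasi-likelihood, 4 KO against 4 Control, no covariate, Benjamini-Hochberg over all genes. The steps were tested on simulated data. Library pairs were compared for duplicates, and none matched within sampling noise: the chi-square over its degrees of freedom lay between 2.33 and 7.96 for pairs of one group. Deviations by library used a prior count of 2. A floor of 3 reads, like any counting limit, covers counting error only. Alternatives used DESeq2 1.42.0, limma 3.58.1, sva 3.50.0, other scalings and filters, and left out each library. Near-identical 3′ ends were searched with BLAST 2.17.0.

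Members and lists were chosen with earlier results of these data known, so their counts and medians are descriptions. Named genes were all called members, per subunit the 5 of lowest p, the 3 highest and 3 lowest in level, the 2 nearest to 40 reads on each side, those failing the filter, those placed otherwise by structure, and up to 4 called genes of each other list. Others named were chosen after their values were seen.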

Additional observations from a re-analysis of the deposited data

Results flagged for a closer look

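In 62 groups of 4 libraries that were looked at, 4 had 1 library far from the other 3 relative to the range of the group, by Dixon's test. Chance alone gives about 1 in 20. For Mrpl17, Control library 2 had 88.0 CPM, against 70.9 to 72.1 CPM in the other Control libraries, and it remained below every KO library. For Mrps16, KO library 2 had 91.9 CPM, below the other KO libraries and above every Control library. For Mrps30, KO library 4 had 59.3 CPM, against 50.4 to 51.2 CPM in the other KO libraries. For Mrpl23, which was too low to test, Control library 3 had 1.76 CPM, against 0.631 to 0.811 CPM in the other Control libraries, a difference of few reads.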

How the results depend on the processing

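No paired analysis was possible because the labels number no replicates, and the numbers 1 to 4 used here follow accession order and only name the libraries. Of the 15 called members, 7 (Mrpl2, Mrpl10, Mrpl11, Mrpl17, Mrps2, Mrps16, Mrps34) passed the threshold in all 19 alternative fits, and 8 lost it in at least 1: Mrpl52 in 13, Mrpl24 in 12, Mrps31 in 11, Mrps35 in 10, Mrpl35 in 9, Mrps18c in 7, Mrps7 in 4 and Mrpl3 in 2. No called member changed direction. Large subunit genes higher in KO numbered 5 with DESeq2, 5 with library totals alone and 5 with no filter on low counts, against 8, and small subunit genes higher numbered 4 with DESeq2 and 4 with libraries thinned to the smallest, against 7. Leaving out 1 library gave 4 to 10 large and 3 to 7 small subunit genes higher, with 0 lower in both. Large subunit genes lower numbered 1 when thinned and 1 with a surrogate variable, Mrpl19 in both (edgeR adjusted p = 0.0489 and 0.0451). The cause was not tested, except that thinning and leaving out libraries remove reads. Medians leaving out 1 library were 0.15 to 0.19 (large) and 0.13 to 0.23 (small). Members above 0 numbered 55 to 66 of those tested. Library totals alone gave 829 genes higher and 901 lower, against 948 and 727 with TMM, and moved the median of all genes to -0.03. Of the members of few reads, Mrpl22 (131 reads) had an SE of 0.29, Mrps33 (142 reads) of 0.26 and Mrps28 (233 reads) of 0.54, all wider than those of the called members, which limits the changes that could be detected in them.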
